A study of Homo sapiens with 4 samples.

Results

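SUMO and SUMO protease genes were examined for γH2AX peaks in HepG2 cells, a line grown from a human liver tumour. The genes were 8 named ones, of 19821 protein-coding genes in all: the modifiers SUMO2 and SUMO3, the E1 subunits SAE1 and UBA2, and the proteases SENP1, SENP2, SENP3 and SENP5. The list was chosen by name, and partly selected on the presence and height of gene-end peaks in these same peak lists, so the counts and heights below are descriptions. All 4 samples of the series are HepG2 and each is a group of its own: lipid-overloaded cells with the γH2AX antibody (HEPG2-PAOA), lipid-overloaded cells with control IgG, mock-treated cells with the γH2AX antibody (HEPG2-DMSO) and mock-treated cells with control IgG. Only the 2 γH2AX peak lists were used, and no IgG level stands beside any peak. The agent, dose and time of the lipid overload are not given beyond the sample name. With 1 library per condition, no difference between lipid overload and mock has a replicate check.

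SUMO is a small protein that cells attach to lysines of other proteins, much as they attach ubiquitin. The SAE1 and UBA2 heterodimer activates it, E3 ligases such as the PIAS proteins help to pass it to its targets, and SENP proteases both mature SUMO precursors and remove SUMO from its targets. SUMO2 and SUMO3 are close relatives that form chains and are known for conjugation under stress, and SUMO conjugation takes part in the response to double-strand breaks. γH2AX, the histone variant H2AX phosphorylated near its tail end, marks chromatin around such breaks. CUT&Tag maps it by tethering a transposase to the antibody, so that nearby DNA is cut and tagged for sequencing.

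The lipid-overload list held 27296 peaks and the mock list 8542, with a median width of 196 bp in lipid overload and 180 bp in mock. Peak height is given below as fragments over the summit, recovered from the fold and p value that the authors list for each peak, with a 95% exact Poisson interval in brackets that covers counting error only. The median peak had 9 fragments in lipid overload and 5 in mock. The depth ratio, lipid overload over mock, was 2.62 as estimated from the genome background of each list, and depth by itself changes which peaks are listed. More cells with the mark and more mark per cell cannot be told apart in these bulk samples. Peaks do not measure expression, so the cell line was not checked against marker genes.

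Promoter sequence from RefSeq (GRCh38.p14, the coordinates of hg38) was matched for 6 of the 8 genes. SAE1 and SENP2 had no entry. Each window runs from 250 bases before a transcript start to 50 after it. The windows of 4 genes are shown because the lists treat them differently: at SUMO2 and SENP5 a lipid-overload peak covered most or all of the window, at SENP1 both lists had a peak over it, and at UBA2 neither list did. Capitals mark bases inside a lipid-overload peak. The windows are chr17:75182910-75183209 (minus strand) for SUMO2, chr3:196867670-196867969 (plus strand) for SENP5, chr12:48105806-48106105 (minus strand) for SENP1 and chr19:34428131-34428430 (plus strand) for UBA2.
SUMO2: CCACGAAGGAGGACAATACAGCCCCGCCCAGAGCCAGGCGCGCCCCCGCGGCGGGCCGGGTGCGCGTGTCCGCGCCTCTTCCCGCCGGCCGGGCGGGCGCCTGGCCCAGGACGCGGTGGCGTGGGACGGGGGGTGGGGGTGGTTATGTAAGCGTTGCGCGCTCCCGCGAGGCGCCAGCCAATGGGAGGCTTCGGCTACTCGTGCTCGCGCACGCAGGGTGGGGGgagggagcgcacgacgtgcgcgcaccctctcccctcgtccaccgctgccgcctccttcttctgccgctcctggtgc
SENP5: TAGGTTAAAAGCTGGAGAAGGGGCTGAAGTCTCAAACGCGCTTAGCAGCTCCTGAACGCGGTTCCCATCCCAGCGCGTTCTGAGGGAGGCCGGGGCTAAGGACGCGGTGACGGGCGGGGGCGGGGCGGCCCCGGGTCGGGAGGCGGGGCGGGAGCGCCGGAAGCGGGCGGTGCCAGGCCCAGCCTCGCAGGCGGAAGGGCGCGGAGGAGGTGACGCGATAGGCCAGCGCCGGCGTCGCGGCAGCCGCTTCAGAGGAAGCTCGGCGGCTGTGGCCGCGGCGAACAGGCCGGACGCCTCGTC
SENP1: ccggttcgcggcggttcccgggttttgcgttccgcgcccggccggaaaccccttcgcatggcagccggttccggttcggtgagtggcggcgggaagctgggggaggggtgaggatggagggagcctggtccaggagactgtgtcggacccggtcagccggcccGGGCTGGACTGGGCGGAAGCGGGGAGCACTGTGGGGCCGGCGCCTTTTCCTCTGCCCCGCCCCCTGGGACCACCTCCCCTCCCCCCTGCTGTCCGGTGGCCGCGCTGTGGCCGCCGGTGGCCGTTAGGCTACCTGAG
UBA2: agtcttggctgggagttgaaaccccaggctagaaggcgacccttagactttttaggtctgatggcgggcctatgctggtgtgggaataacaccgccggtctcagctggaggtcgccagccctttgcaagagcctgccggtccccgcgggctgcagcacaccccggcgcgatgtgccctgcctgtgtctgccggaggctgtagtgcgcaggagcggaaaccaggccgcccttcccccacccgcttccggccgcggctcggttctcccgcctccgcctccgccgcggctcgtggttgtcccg

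The lipid-overload peak covered bases 1 to 224 of the SUMO2 window, all 300 bases of the SENP5 window, bases 164 to 300 of the SENP1 window and 0 bases of the UBA2 window. The mock peak at SENP1 covered bases 1 to 298, and mock peaks covered 0 bases of the other 3 windows. SENP1 has 2 further start sites in the table, and only the mock peak reached their windows. All 6 matched genes had a CpG-rich window (at least 55% G+C and an observed over expected CpG ratio of at least 0.75), as did 54.1% of the 15813 protein-coding genes in the table. The 4 windows shown had 75.3% (SUMO2), 73.0% (SENP5), 73.3% (SENP1) and 67.7% (UBA2) G+C, against a median of 62.3% over 22156 windows. The windows of SUMO3 (78.3% G+C, 50 CpG) and SENP3 (75.7% G+C, 48 CpG), not shown, had 0 bases covered in either list. The UBA2 window held 27 CpG, and the covered windows shown held 41 at SUMO2, 41 at SENP5 and 31 at SENP1, so uncovered windows stood at both ends of the range of these 6. Short motifs were searched on both strands, counting overlapping matches. The Sp1 box GGGCGG occurred 5 times at SENP5, 2 times at SUMO2, 2 times at SENP1 and 1 time at UBA2, and was present in 56.3% of all windows and 82.8% of CpG-rich ones. The ETS motif CCGGAA occurred 2 times at SENP1, 1 time at SENP5, 1 time at UBA2 and 0 times at SUMO2, and was present in 21.2% of all windows. The NF-Y box CCAAT was found 1 time at SUMO2 and in 34.6% of all windows. A match is a string of letters and not a bound site.

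A gene end is 1 kb either side of either end of the gene, and a peak counted when any part of it reached into that stretch. In lipid overload 7 of the 8 genes had a gene-end peak, against 43.4% of all protein-coding genes, and in mock 1 of 8 did, against 13.4%. For 6 of the 8 genes such a peak was in the lipid-overload list alone (31.4% of all protein-coding genes), for SENP1 in both lists (12.1%), and for 0 genes in the mock list alone (1.34%). UBA2 had none in either list. These counts took part in the choice of the genes and are read no further. Over protein-coding genes with a CpG-rich promoter the shares were 60.6% in lipid overload and 18.7% in mock. Over promoter windows in place of gene ends, 3 of the 6 matched genes had a peak in lipid overload (SUMO2, SENP1 and SENP5) and 1 in mock (SENP1), against 38.2% and 10.8% of protein-coding genes in the promoter table. The highest gene-end peaks of the 7 genes ranged from 10 to 40 fragments with a median of 16. Over all 8611 protein-coding genes marked in lipid overload the median was 12 (quartiles 8 and 18).

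**Figure D1:**
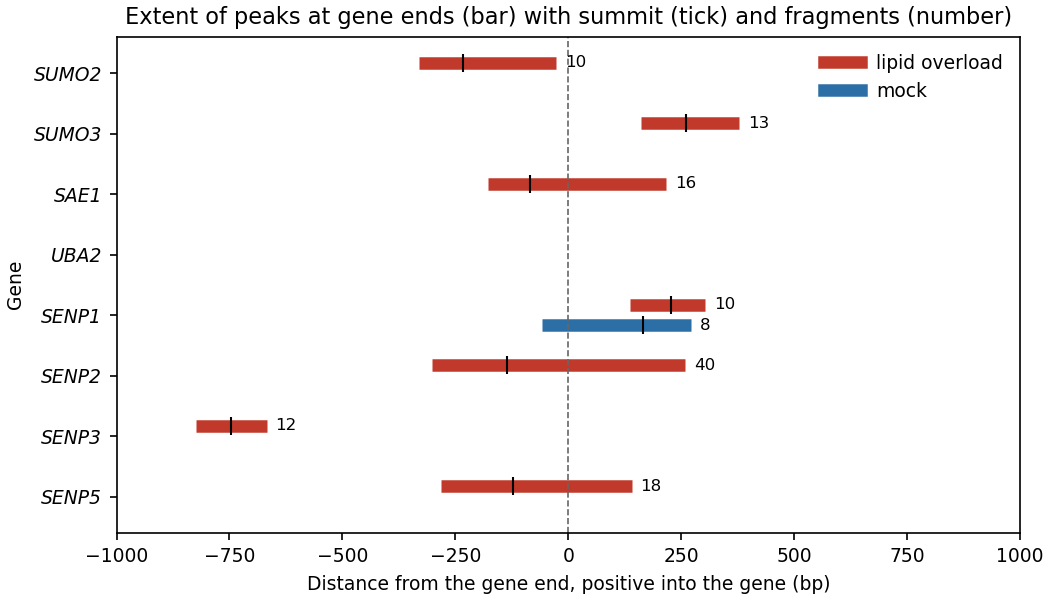
Extent of each peak within 1 kb of the gene end that carries it, in bp from that end, positive into the gene (red, lipid overload; blue, mock); the tick is the summit and the number its fragments. For SENP3 the lower-coordinate end is drawn, and its peak of 31 fragments beyond the other end lies outside the range. At SUMO2, SUMO3, SAE1, SENP2 and SENP5 there is a red bar and no blue one, at SENP1 both overlap, and at UBA2 there is none.

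Both modifier genes had a gene-end peak of moderate height in lipid overload only. SUMO2 (chr17:75165586-75182959) had 10 fragments (4.80 to 18.4) in a peak of 304 bp at chr17:75182986-75183289, with the summit 234 bp outside the gene, before its start. Of the marked genes, 68.4% had a gene-end summit at least as high. SUMO3 (chr21:44805617-44818062) had 13 fragments (6.92 to 22.2) in a peak of 219 bp at chr21:44817684-44817902, with the summit 261 bp inside the gene, past the promoter window. A second lipid-overload peak of 7 fragments (2.81 to 14.4) and 156 bp lay deeper inside SUMO3, 5328 bp from its nearer end. Neither modifier gene had a mock peak at its ends or inside. Divided by the depth ratio of 2.62, the lipid-overload summits come to 3.81 fragments (1.83 to 7.01) at SUMO2 and 4.95 (2.64 to 8.47) at SUMO3. At these sites a mock peak would have needed 4 and 5 fragments to be listed, if local background scaled alike. Listed here means reaching the lowest −log10 p of the mock list, its weakest p value. Scaled intervals, here and below, hold counting error of the lipid-overload summit alone and none of the mock library. Both needs lie within these intervals, so whether a mock summit of proportional height would have been listed is not settled at this depth.

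Of the E1 genes, whose proteins work as a pair, only SAE1 was marked at an end, and only in lipid overload. SAE1 (chr19:47130835-47210636) had 16 fragments (9.15 to 26.0) in a peak of 395 bp at chr19:47130658-47131052 in lipid overload, with the summit 84 bp outside the lower-coordinate end of the gene. No mock peak lay there. Scaled to the mock depth the summit comes to 6.10 fragments (3.49 to 9.90), where 4 were needed. That need lies within the interval. UBA2 (chr19:34428381-34471251) had no peak at either end and none inside in either list. The lipid-overload list held no peak of fewer than 4 fragments, so a smaller pile-up at UBA2 was not detectable at this depth. A higher local background raises the number needed. At the lipid-overload peaks within 50 kb of UBA2 it stood at 2.03 to 6.81 times the genome level. The number needed at UBA2 itself was not worked out. The nearest lipid-overload peak lay 16.5 kb beyond the gene, with 7 fragments.

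The proteases held both the highest gene-end peak of the 8 genes and the only one shared with mock. SENP2 (chr3:185586295-185633551), a nuclear envelope-associated protease that matures and removes SUMO, had 40 fragments (28.6 to 54.5) at chr3:185585994-185586554 in lipid overload and no peak at either end, inside or within 50 kb in mock. The peak was 561 bp wide, spanned the lower-coordinate end of the gene and had its summit 135 bp outside. Of the 8611 marked genes, 261 (3.03%) had a gene-end summit as high or higher. Among the 6221 genes marked in lipid overload only there were 36 (0.579%), against a median of 11 fragments. Height took part in the choice of the genes, so these ranks are read no further. Scaled to the mock depth the summit comes to 15.2 fragments (10.9 to 20.8), where 5 were needed for a mock peak. The whole interval lies above that need. Because height took part in the choice, this too is read no further, and the same holds for SENP5 and SENP3 below. A second lipid-overload peak inside SENP2 had 5 fragments (1.62 to 11.7).

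SENP5 (chr3:196867920-196934714), a protease found in the nucleolus with a preference for SUMO2 and SUMO3, had 18 fragments (10.7 to 28.4) in lipid overload and no peak in mock. The peak of 422 bp at chr3:196867639-196868060 spanned the start of the gene, with the summit 123 bp before it. Scaled to the mock depth it comes to 6.86 fragments (4.07 to 10.8), and 4 were needed, just under the lower end of the interval. SENP5 and SENP2 both lie on chromosome 3 but share no peak.

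SENP1 (chr12:48042897-48106079), which matures SUMO precursors and removes SUMO in the nucleus, had 10 fragments in lipid overload (4.80 to 18.4) and 8 in mock (3.45 to 15.8). The lipid-overload peak was 167 bp wide at chr12:48105776-48105942, and the mock peak 331 bp wide at chr12:48105808-48106138. They shared 135 bp, and their summits stood 62 bp apart. The ratio of fragments was 1.25 (0.444 to 3.64), an interval that takes in the depth ratio of 2.62. Over the 1846 lipid-overload peaks at coding gene ends that overlap a mock peak, the median ratio was 2.55 (quartiles 2.00 and 3.30). Where the mock peak also had 8 fragments, in 200 cases, the median was 2.25 (quartiles 1.75 and 3.13). The SENP1 peaks lie within 1 kb of the end of PFKM, the muscle-type phosphofructokinase gene, and overlap that gene, so they cannot be given to SENP1 alone.

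SENP3 (chr17:7561919-7571969), the other nucleolar protease, counted as marked through peaks that lie closer to its neighbours. The higher had 31 fragments (21.1 to 44.0) and 463 bp at chr17:7572302-7572764, with the summit 680 bp beyond the end of SENP3 but 176 bp from the end of EIF4A1, a helicase gene of translation initiation. The lower had 12 fragments (6.20 to 21.0) and 158 bp at chr17:7561094-7561251. Its summit stood 747 bp before the start of SENP3 and 429 bp from an end of TNFSF12-TNFSF13, a readthrough gene of 2 cytokines that the peak overlaps. The SENP3-EIF4A1 readthrough gene is also annotated here. Scaled to the mock depth the higher peak comes to 11.8 fragments (8.03 to 16.8), where 6 were needed, and the lower to 4.57, where 5 were needed. Neither covered the SENP3 promoter window, and no mock peak lay at either end. Leaving SENP3 aside, gene-end summits of the other 6 marked genes stood 84 to 261 bp from the end.

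**Figure D2:**
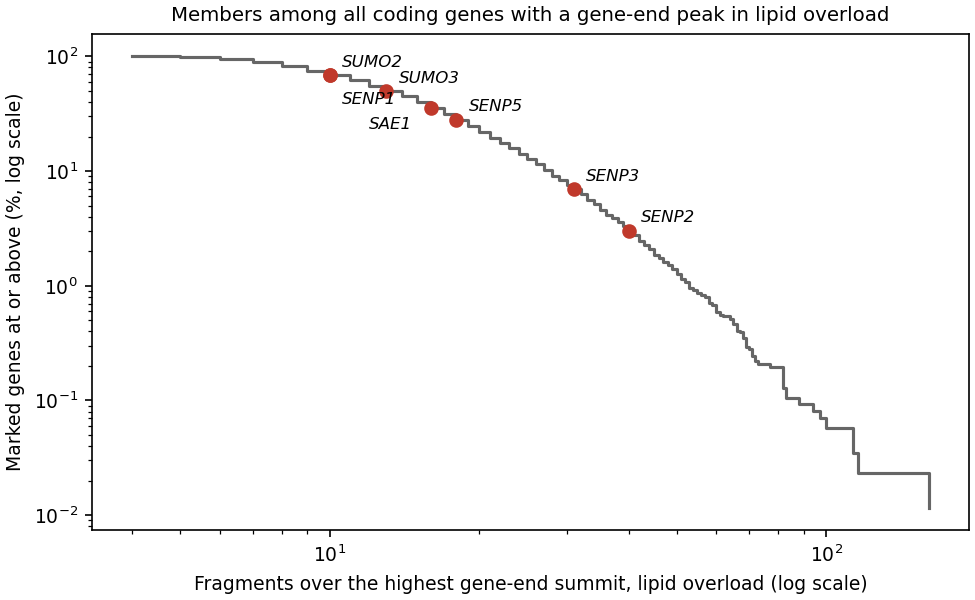
Share of the 8611 coding genes marked at a gene end in lipid overload (y axis, percent, log scale) whose highest gene-end summit has at least the number of fragments on the x axis (log scale); red points are 7 of the 8 genes, all but UBA2. SENP2 and SENP3 stand in the upper tail at 3.03% and 6.97%, and SUMO2 and SENP1 at 68.4%.

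The genes most like SENP2 over the 2 libraries, by lipid-overload summit fragments and then by width, among coding genes without a mock gene-end peak, were MNT with 40 fragments in 570 bp, MPND with 40 in 477 bp and CAMSAP1 with 39 in 465 bp. MNT encodes a repressor that pairs with MAX, and CAMSAP1 a protein of microtubule minus ends. SENP2 had 40 fragments in 561 bp.

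Inside the genes, away from their ends, 2 of the 8 genes held a peak in lipid overload (SUMO3 with 7 fragments and SENP2 with 5), against 27.8% of all protein-coding genes. In mock 0 of 8 did, against 12.8%. Neither count is read as a trait of these genes.

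Within 50 kb outside the genes, 34 peaks were listed in lipid overload and 8 in mock. All 8 genes had at least 1 in lipid overload (68.5% of all protein-coding genes), and 5 of 8 in mock (39.4%). The median gene of the 8 had 4.5 such peaks in lipid overload and 1 in mock, against 1 and 0 over all protein-coding genes. By gene the lipid-overload number ran from 1 (SENP2) to 7 (SAE1 and UBA2, both on chromosome 19). Genes of like surroundings were not compared, so these numbers are not read as a trait of the 8 genes. Of the 34, 11 lay at an end of another coding gene and 16 inside one, with no share over the whole list worked out. These peaks ranged from 4 to 55 fragments in lipid overload and from 5 to 14 in mock. Several of them were higher than the gene-end peak of the SUMO gene they surround.

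**Figure D3:**
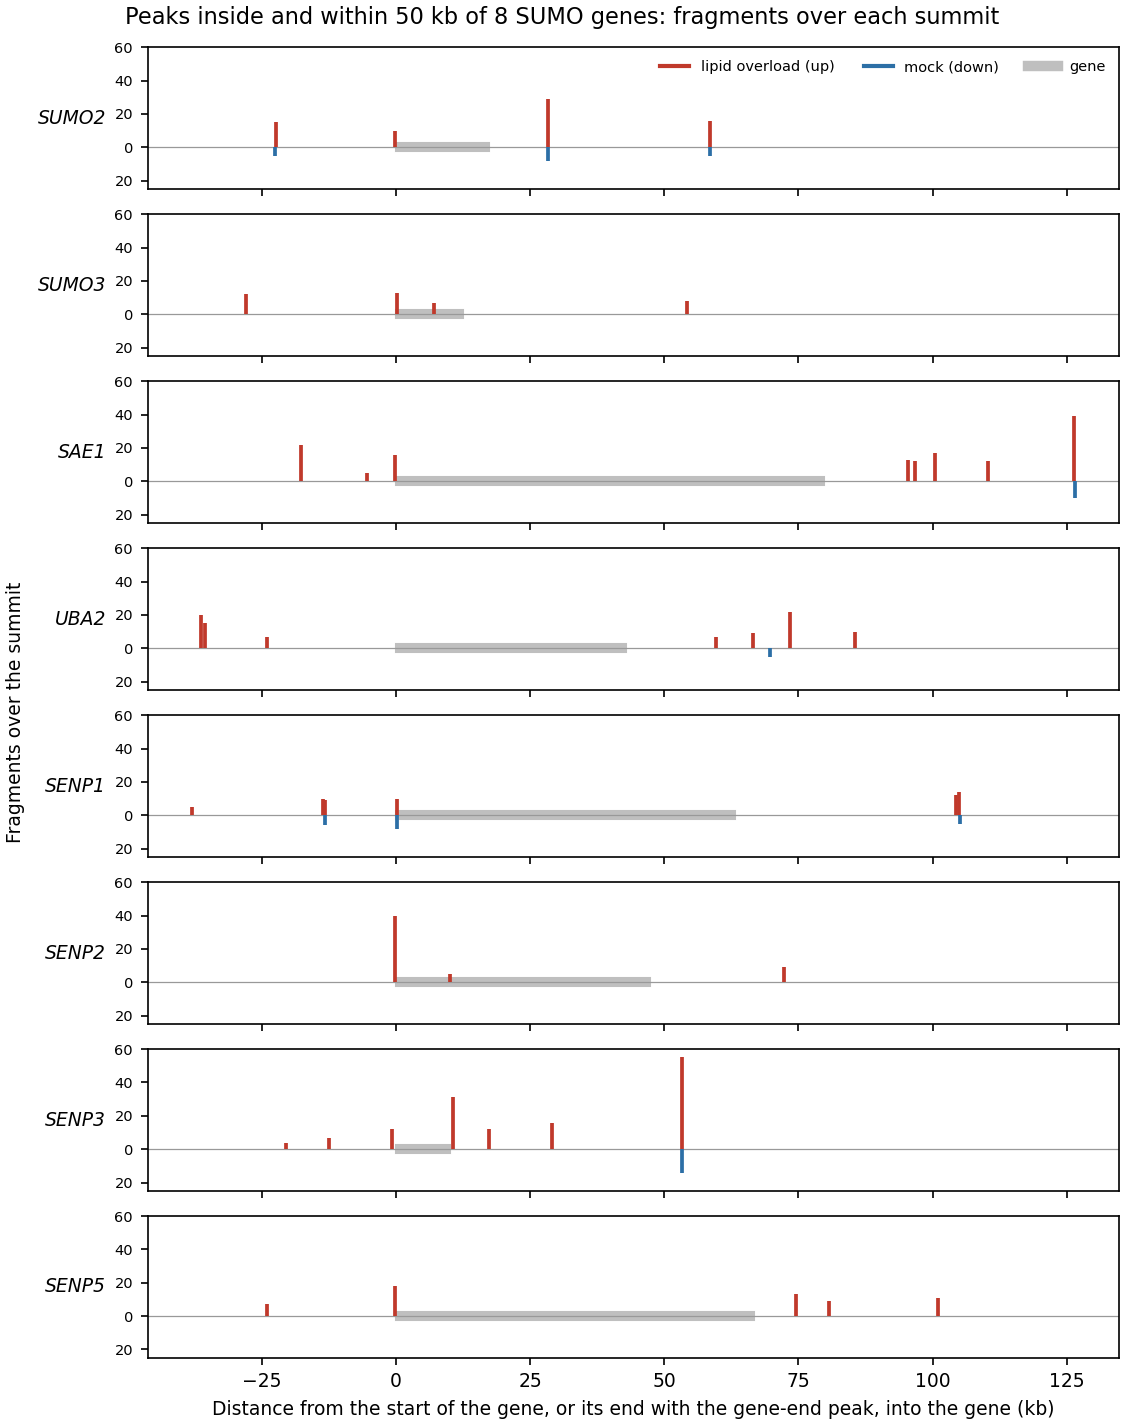
Peaks of both lists inside and within 50 kb of each gene, as fragments over the summit (lines up, lipid overload; lines down, mock) by distance in kb from the end that carries the gene-end peak (for UBA2 and SENP3, the start), positive into the gene; the grey bar is the gene. SENP2 has a single high line at its end, while SENP3 and SAE1 have their highest lines, of 55 and 39 fragments, at neighbouring genes.

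The highest peak around SENP3 had 55 fragments (41.4 to 71.6) in lipid overload and 14 (7.65 to 23.5) in mock. It lay at FXR2, an RNA-binding protein gene, and SHBG, which encodes the sex hormone carrier made by liver. The ratio was 3.93 (2.16 to 7.65). Around SAE1 the highest was 39 fragments (27.7 to 53.3) in lipid overload and 10 (4.80 to 18.4) in mock at the end of CCDC9, a ratio of 3.90 (1.91 to 8.76). Between them lay 3 lipid-overload peaks of 12 to 17 fragments inside BBC3, the p53 target known as PUMA, none of them in the mock list. Local background at these 3 peaks was high, at 7.74 to 9.05 times the genome level. Whether mock summits of proportional height would have been listed there was not tested.

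Around SUMO2 the highest peak, at the end of JPT1, had 29 fragments (19.4 to 41.6) in lipid overload and 8 (3.45 to 15.8) in mock. The end of NUP85, a nuclear pore subunit gene, had 15 in lipid overload and 5 in mock, and a site inside ARMC7 had 16 and 5 in the same order. So both lists marked 3 sites around SUMO2, while the end of SUMO2 itself was listed in lipid overload only. Their ratios were 3.63, 3 and 3.20, and each interval takes in 2.62.

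UBA2, without a peak of its own, had 7 lipid-overload peaks around it and 1 mock peak. The highest had 22 fragments and lay inside WTIP. The glycolysis gene GPI held 2 of 20 and 15 fragments, and PDCD2L had 7 at its end. The mock peak of 5 fragments, also inside WTIP, overlapped none of these. The highest peaks around the remaining genes were 14 fragments in lipid overload and 5 in mock inside COL2A1 near SENP1, 13 at NCBP2 near SENP5, 12 nearest to PTTG1IP near SUMO3 and 9 inside IGF2BP2 near SENP2. The last 3 had no mock counterpart. SENP2 thus had the highest gene-end peak of the 8 genes and the fewest flanking ones, 1 in lipid overload and 0 in mock.

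Local background, the fragment level the peak caller expected at a site, was above the genome level at every gene-end peak of the 8 genes. It stood at 1.94 (SENP1) to 6.25 times (SENP3, at EIF4A1) the genome level in lipid overload and at 3.17 times in mock (SENP1). SENP2 stood at 4.76 times. If no control library was used, a peak adds to the background of its own surroundings. Whether IgG served as control is not given, and how far this level reflects the peak itself was not tested.

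A further 19 genes were described in the same way, those of the SUMO pathway and with them SENP8, a relative of the SUMO proteases that acts on NEDD8. In lipid overload 13 of them (68.4%) had a gene-end peak and in mock 3 (15.8%). The shares over all protein-coding genes were 43.4% and 13.4%, and over those with a CpG-rich promoter 60.6% and 18.7%. The highest gene-end peaks of the 13 genes ranged from 6 to 26 fragments with a median of 10, against 12 over all marked genes. By role, 6 of 9 E3 ligases and their partners were marked in lipid overload and 2 in mock, 4 of 6 further proteases (SENP8 among the unmarked) in lipid overload and 0 in mock, both SUMO-targeted ubiquitin ligases in lipid overload and 1 in mock, and PML in lipid overload only. The modifier gene SUMO4 had no gene-end peak in either list.

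PIAS4, an E3 ligase that acts at double-strand breaks, had the highest gene-end peak of these genes, with 26 fragments (16.98 to 38.1) in lipid overload and none in mock. Scaled to the mock depth it comes to 9.91 fragments (6.47 to 14.5), where 6 were needed. Of the 13 further genes marked in lipid overload, PIAS4 alone had its whole interval above the need. Among the others without a mock gene-end peak are DESI2, DESI1, PML and PIAS1. For these others, whether a mock summit of proportional height would have been listed is not settled at this depth. The share of all marked protein-coding genes with a whole interval above the need was not worked out. Standing above it is therefore not read as a trait of PIAS4. Inside PIAS4, off its ends, there were 2 lipid-overload peaks and 4 mock peaks. The lists shared a site of 28 fragments in lipid overload and 16 in mock. The other lipid-overload peak, of 15 fragments and 958 bp, overlapped mock peaks of 12, 14 and 7 fragments. The E3 ligase gene PIAS3 had 17 fragments (9.90 to 27.2) in lipid overload and 12 (6.20 to 21.0) in mock, and RANBP2, a nuclear pore protein with E3 activity, had 10 (4.80 to 18.4) and 7 (2.81 to 14.4) in the same order. Their ratios of 1.42 (0.638 to 3.25) and 1.43 (0.491 to 4.42) lie on the same side of 2.62 as that of SENP1, and both intervals take it in. The median of 2.55 over the 1846 shared peaks at coding gene ends lies on that side too. RNF4, a ubiquitin ligase that recognises SUMO chains, had 8 fragments at one end in lipid overload and 4 at the other end in mock, so its peaks do not overlap.

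DESI2 and DESI1, desumoylating proteases, had 17 and 16 fragments in lipid overload only. The DESI1 peak lies at the adjoining end of XRCC6, which encodes a Ku subunit that binds broken DNA ends. PML, which encodes the scaffold of SUMO-rich nuclear bodies, had 13 fragments in lipid overload only, in a peak shared with the end of STOML1, and the E3 ligase gene PIAS1 had 10. The NSMCE2 and USPL1 peaks, of 8 and 7 fragments, were likewise shared with WASHC5 and HMGB1. PIAS2, RANGAP1, SENP7, SENP8 and TOPORS had no gene-end peak in either list.

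**Figure D4:**
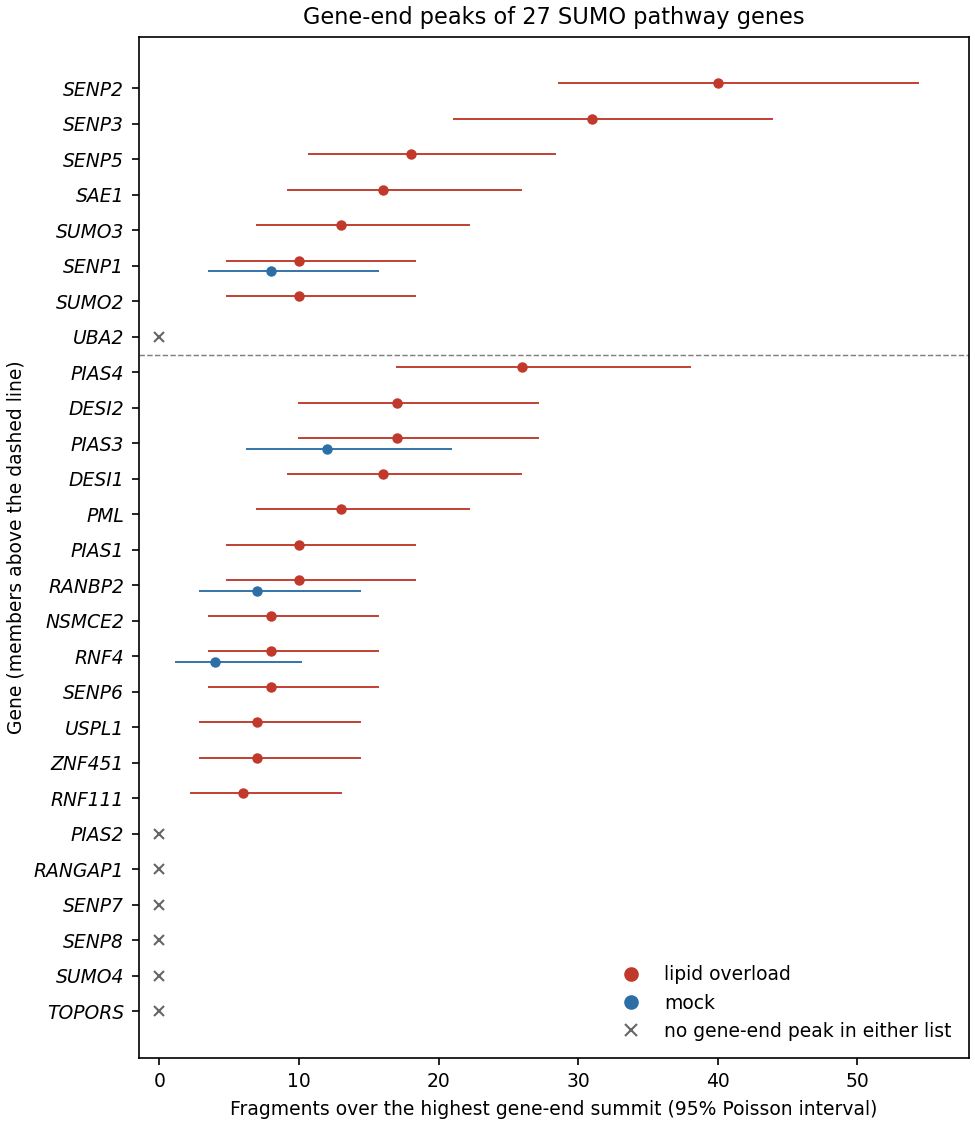
Fragments over the highest gene-end summit (x axis, with 95% Poisson interval) of the 8 genes, above the dashed line, and 19 further genes of the pathway, SENP8 included (red, lipid overload; blue, mock; a cross marks genes without a gene-end peak in either list). Blue points stand at SENP1, PIAS3, RANBP2 and RNF4, and the interval of SENP2 in lipid overload (28.6 to 54.5) lies above the point of every other gene but SENP3.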

How the data were processed

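Peak lists of 2 γH2AX CUT&Tag libraries of HepG2 cells were used, 1 per condition, from 100000 cells and 14 PCR cycles per the labels' protocols. The build was hg38, and MACS2 2.1.2, BWA, deepTools and FastQC are named in the submitters' processing notes. Settings, and whether IgG served as control, are not given in the sources used. For each peak the deposited files give its interval, score, fold enrichment (a linear ratio), −log10 p, −log10 q and a summit offset, all the authors' own values. Fold and −log10 p were solved together for whole fragments over the summit and local background, with fold as fragments plus 1 over background plus 1 and p as the Poisson tail above the fragment number. All peaks of both lists came out whole within 0.0001 in log10 p. The step was tested on simulated data. Steps in the background gave fragment length, and with it the depth ratio. This takes the background to come from each γH2AX library itself, which the sources used do not state. Files give no library totals, so absolute depth is unknown.

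Genes came from RefSeq GRCh38.p14. Of the table, 718 genes that break position order by over 1 Mb were set aside. Overlap means at least 1 shared bp. Intervals are exact at 95% and hold for counting error alone, as PCR duplicates are no separate molecules. Members, the 19 further pathway genes and all rules were chosen with earlier results of these data known. Named were all members, pathway genes with a mock gene-end peak or among the 6 highest in lipid overload, genes sharing a member's peak, the gene nearest to each member's highest flanking peak, and the 3 genes most like the highest member. The remaining pathway genes, genes at other flanking peaks and genes sharing a peak with a pathway gene were added after values were seen. Some pathway genes are not reported here. No test between conditions was run. Alternatives covered peak thresholds, windows, depth and pairing of peaks. Work was done in Python 3.11.15 with numpy 2.4.6, pandas 2.3.3 and scipy 1.17.1.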

Additional observations from a re-analysis of the deposited data

How the results depend on the processing

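The counts for the 8 genes (7 in lipid overload, 1 in mock, 6 in lipid overload only) were identical, with the same genes, with gene ends of 500 bp or 3 kb, with 6 or more fragments, with lists cut to one length, with folds from 5 up and with −log10 q from 5 up. Thinning lipid-overload fragments to the mock depth left 5.64 genes on average over 100 draws (3 to 7) and 5.02 in lipid overload only (3 to 6). The thinned list as a whole still held 12884 peaks on average, against 8542 in mock. The share of all protein-coding genes marked after thinning was not worked out. The 8 genes were partly selected on the presence and height of these same peaks, so their unchanged counts are no measure of robustness. Counts for the 19 other genes (13, 3 and 10) moved under some settings. With equal list lengths they were 8 in lipid overload and 6 in lipid overload only, and thinned 8.60 (5 to 12) and 6.64 (3 to 10). At a −log10 q of at least 5 they were 9 in lipid overload, 2 in mock and 7 in lipid overload only. With gene ends of 3 kb they were 15, 5 and 10 in the same order. Shares over all protein-coding genes were not worked out at these settings, so the changes are read no further. Among genes in the promoter table, a peak over a promoter window, an alternative chosen after seeing the data, was listed in lipid overload for 3 of 6 members instead of 5 at gene ends. Backgrounds were 60.6% and 18.7% over genes with a CpG-rich promoter, also chosen after seeing the data. The sums of 44 lipid-overload and 9 mock peaks in, at and around the 8 genes became 25 and 2 at a −log10 q of at least 5, 29 and 4 within 25 kb, and 81 and 16 within 100 kb. By the authors' fold, SUMO3 ranked 7 instead of 5 and SENP1 5 instead of 6 among the 7 genes. The ratio at SENP1 was 1.08 by fold. With overlap of 50% of each peak it has no value, since the shared bases are 40.8% of the mock peak. No paired analysis was possible because each group has 1 sample.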

Other observations

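Some pathway genes counted as unmarked at their ends had a lipid-overload peak over a start site inside the gene in the RefSeq promoter table. SENP8, the NEDD8 protease of the SENP family, had 20 fragments (12.2 to 30.9) in a peak of 512 bp over a start 4145 bp inside the gene. RANGAP1, a Ran GTPase regulator modified by SUMO, had 10 fragments (4.80 to 18.4) over a start 16182 bp inside, and PIAS2 had 7 (2.81 to 14.4) over a start 2638 bp inside. None of these windows had a mock peak. The SENP8 peak also lies at an end of MYO9A, 405 bp from its summit. The PIAS2 peak also lies at an end of KATNAL2, 7 bp from its summit. These peaks cannot be given to SENP8 or PIAS2 alone. Counted by promoter windows, 13 of the 15 further genes in the table, SENP8 included, had a lipid-overload peak and 2 a mock peak, instead of 10 and 3 at gene ends. Over all protein-coding genes in the table the shares by promoter window were 38.2% and 10.8%. Counted in the same way, SUMO3 and SENP3 had none.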
